A study of Mus musculus with 58 samples.

Results

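The aryl hydrocarbon receptor (AhR) pathway was followed in male Muta™Mouse animals, a transgenic line carrying a bacterial *lacZ* reporter for mutation scoring, after dosing with benz(a)anthracene (BaA), which belongs to the polycyclic aromatic hydrocarbons. The 9 genes chosen were the cytochrome P450 enzymes Cyp1a1, Cyp1a2 and Cyp1b1, the feedback repressors Ahrr and Tiparp, the detoxification enzymes Nqo1 and Aldh3a1, the receptor Ahr and its partner Arnt. They were taken by name, with earlier results of these data known. They are 9 of the 20018 gene symbols matched on the array, represented by 14 of its 55681 probes. BaA in olive oil was given by oral gavage for 28 days. D1 mice received 20, D2 mice 40 and D3 mice 80 mg per kg body weight a day, and control mice (D0) the oil alone. The mice were 10 weeks old, and tissues were taken 72 h after the last dose. Lung was measured in 5 mice of each group, liver in 5, 5, 5 and 4 mice, and forestomach in 4, 5, 5 and 5 mice from D0 to D3. This gave 58 arrays from 20 mice, and the same mouse number in different tissues is the same animal. On every array the tissue RNA carried Cy5 and a common reference RNA from mouse cell lines carried Cy3, so each value is a log2 ratio of tissue to reference, which compares one probe across mice but not one gene with another.

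AhR is a ligand-activated transcription factor that waits in the cytoplasm in a complex with Hsp90 and its co-chaperones. Planar hydrocarbons bind it, it moves to the nucleus, pairs with Arnt, and the pair binds DNA elements with a GCGTG core to switch on its targets. Cyp1a1, Cyp1a2 and Cyp1b1 are the classical targets and oxidise hydrocarbons such as BaA, which can both clear them and make reactive diol epoxides. Cyp1a2 is known as a liver enzyme that is made without any inducer, and Cyp1a1 as one that is low in most tissues until induced. Ahrr competes for Arnt and Tiparp modifies the receptor, so both restrain the pathway once they are made.

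Matches to this 5-letter core were marked near the 3 target genes that the lung results below turn on. The 250 bases before the start of Cyp1a1, Cyp1b1 and Ahrr are given 5′ to 3′ on the gene's strand, from RefSeq on GRCm38.p6. The core GCGTG, or CACGC where it lies on the other strand, is in capitals. The window for Cyp1a1 is chr9:57697363-57697612 on the plus strand, that for Cyp1b1 is chr17:79715062-79715311 on the minus strand, and that for Ahrr is chr13:74292332-74292581 on the minus strand.
Cyp1a1: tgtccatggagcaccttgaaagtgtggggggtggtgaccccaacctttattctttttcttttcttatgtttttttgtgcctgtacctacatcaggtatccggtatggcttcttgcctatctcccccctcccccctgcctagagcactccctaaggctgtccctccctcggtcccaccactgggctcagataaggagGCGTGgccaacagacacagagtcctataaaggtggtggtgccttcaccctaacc
Cyp1b1: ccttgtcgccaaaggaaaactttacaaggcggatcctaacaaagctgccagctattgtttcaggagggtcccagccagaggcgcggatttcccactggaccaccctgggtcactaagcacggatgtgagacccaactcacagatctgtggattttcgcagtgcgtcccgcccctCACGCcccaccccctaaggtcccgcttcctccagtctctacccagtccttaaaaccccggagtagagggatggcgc
Ahrr: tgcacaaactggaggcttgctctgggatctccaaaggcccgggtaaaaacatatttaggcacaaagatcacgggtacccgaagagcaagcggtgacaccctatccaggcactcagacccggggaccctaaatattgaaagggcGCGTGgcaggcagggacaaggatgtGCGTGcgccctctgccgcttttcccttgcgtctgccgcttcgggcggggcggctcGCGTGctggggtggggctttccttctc
The core begins 54 bases before the start of Cyp1a1 and 76 bases before that of Cyp1b1, and Ahrr holds it 3 times, at 107, 82 and 27 bases before its start. The windows of Tiparp and Arnt held 1 core each and those of Cyp1a2 and Nqo1 held none, while the table used had no window for Ahr or Aldh3a1. Of all 32851 such windows in the table, 28.2% held at least 1 core and 2.77% held 3 or more. A match of 5 letters is a description of the sequence and does not show that the receptor binds there, which was not tested. Regulatory elements further away were not examined.

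Each tissue carried its own markers. All 7 liver markers were detected on every liver array and all 5 lung and all 6 endothelial markers on every lung array. The forestomach, a squamous-lined part of the mouse stomach, carried 7 of 8 squamous markers on every array, but the pieces differed in how much glandular stomach they held. The mean of 8 glandular markers, among them the acid pump genes Atp4a and Atp4b, was 0.92, 5.70, 1.07 and 0.78 in the D0 mice 1 to 4, 4.85 to 6.07 in the D1 mice, 1.07 to 6.21 in the D2 mice and 1.19 to 5.88 in the D3 mice. In lung, the mean of the 4 squamous markers, of 8 on the array, that were detected on enough arrays to be used was 3.62 in D0 mouse 5 and 0.06 to 0.15 in the other D0 mice, and among the dosed mice it was highest in D3 mouse 16, at 2.33. In these bulk samples, fewer cells of a type and less RNA per cell cannot be told apart.

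The 3 tissues held different parts of the pathway before any BaA was given. Among the D0 mice, Cyp1a1 was detected in all 5 lungs, in 3 of 4 forestomachs and in none of the 5 livers, and Cyp1a2 was detected in all 5 livers and in no lung or forestomach. Here and throughout, detected means that the scanner software called the Cy5 spot well above background. Cyp1a2 in liver had log2 ratios of 5.03, 4.35, 5.10, 4.87 and 4.45, while lung ran from −0.09 to 0.10 and forestomach from −0.23 to 0.06. From the Cy5 signal, liver exceeded lung at least 174-fold and forestomach at least 189-fold. These bounds set the mean of the livers against a floor averaged over the dimmer arrays. On each such array the floor was the lowest signal called well above background, or the probe's own signal where that was higher. The ratio itself gave a difference of only 4.73 ± 0.13 (SE) between liver and lung in the joint limma fit of all arrays. No p is given for Cyp1a2, which was tested there through the liver arrays alone. The Cy3 signal of this probe also stood higher on the liver arrays, at 8.00 to 9.32 against 5.62 to 5.95 on the lung arrays, although the reference RNA was the same. The reason for the raised Cy3 signal was not tested.

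**Figure D1:**
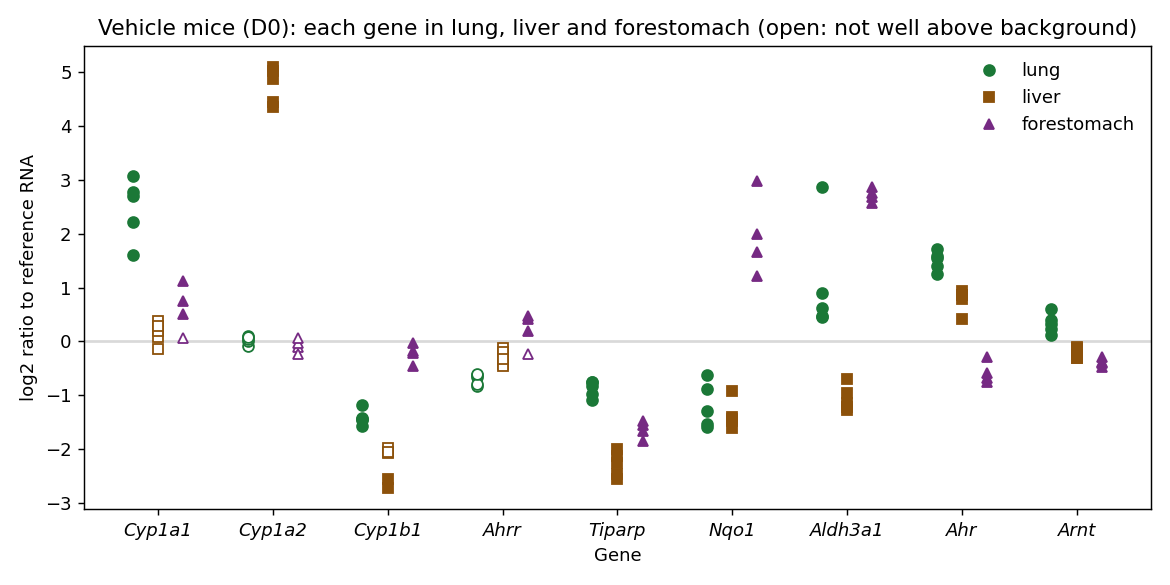
The vertical axis is the log2 ratio of tissue to reference RNA and each symbol is 1 vehicle mouse (lung n = 5, liver n = 5, forestomach n = 4), with open symbols for values not well above background. Cyp1a2 stands between 4.35 and 5.10 in liver and near 0 elsewhere, and Nqo1 and Aldh3a1 stand highest in forestomach, apart from the Aldh3a1 value of 2.87 in 1 lung.

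From the Cy5 signal, Cyp1a1 in lung exceeded liver at least 3.79-fold, with mean signals of 8.16 and 6.10 on the log2 scale. No p is given for this step, since the probe was tested through the lung arrays alone. The difference of lung from forestomach, 1.86 ± 0.87 (SE), did not pass the test in the joint limma fit (adjusted p = 0.0667). That SE is pooled over all groups of the joint fit, dosed mice included. The SD was 0.58 in D0 lung and 0.45 in D0 forestomach, against 2.80 and 2.48 in the D1 mice. The D0 values ran from 1.60 to 3.07 in lung and from 0.06 to 1.13 in forestomach. For the receptor Ahr the brighter probe gave the order lung, liver and forestomach, with mean log2 ratios of 1.51, 0.77 and −0.58. Each step passed the test, lung over liver by 0.73 ± 0.11 (adjusted p = 1.02e-07) and liver over forestomach by 1.35 ± 0.12 (adjusted p = 2.16e-14). The second Ahr probe was dim, detected on 7 of 20 lung arrays. It put lung over liver by 0.19 ± 0.10 and lung below forestomach by 0.04 ± 0.11, neither of them called. Tiparp followed another order, lung over forestomach by 0.76 ± 0.14 (adjusted p = 1.12e-05) and forestomach over liver by 0.64 ± 0.14 (adjusted p = 0.000124). Cyp1b1 was highest in forestomach, by 1.19 ± 0.30 over lung (adjusted p = 0.000566), and lung exceeded liver by 0.86 ± 0.28 (adjusted p = 0.00531), where it was detected in only 3 of 5 D0 mice. Nqo1, a quinone reductase, exceeded lung by 3.14 ± 0.24 in forestomach (adjusted p = 1.93e-16), and lung and liver did not differ beyond their spread (0.19 ± 0.22, adjusted p = 0.459). The log2 ratio of Ahrr was 0.91 ± 0.18 higher in forestomach than in lung (adjusted p = 2.60e-05), a value set against lungs of which only 1 of 5 was above background, while 3 of 4 forestomachs were. Aldh3a1, an aldehyde dehydrogenase abundant in squamous and corneal epithelia, exceeded liver by 3.78 ± 0.26 and lung by 1.66 ± 0.25 in forestomach. The lung mean takes in mouse 5 at 2.87, while the other D0 lungs ran from 0.46 to 0.91. Arnt differed least, and its lead probe, the one with the brightest mean Cy5 signal, put lung over forestomach by 0.72 ± 0.12 (adjusted p = 1.23e-06) while its second probe put lung below forestomach by 0.33 ± 0.09 (adjusted p = 0.00190), so the probes disagreed on the direction. In all, 8 of 13 probes of the 9 genes tested were called between lung and liver, 9 of 12 between lung and forestomach and 8 of 12 between liver and forestomach, where called means an adjusted p of at most 0.05 and a fold of at least 1.5. Over all probes the percentages called were 46.8%, 30.5% and 39.1%. Both counts with liver include Cyp1a2, and that of lung and liver also Cyp1a1, each tested through a single tissue.

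Against these differences between tissues, the responses to 28 days of BaA were small or uneven. No probe of the 9 genes was called at any dose in any tissue by the model of all 4 dose groups. In lung, 12 probes of 8 genes were detected on at least 4 arrays and tested, and 0 were called at D1, D2 and D3, where 0.00329%, 0.49% and 1.75% of all probes were called. At an unadjusted p under 0.05 there were 6, 5 and 2, against 7.39%, 15.9% and 23.5% of all probes. In liver, 10 probes of 7 genes gave 0 calls against 0.241%, 0.483% and 0.395% of all probes, and 0, 1 and 2 at an unadjusted p under 0.05 (7.66%, 13.6% and 15.8% of all probes). In forestomach, 11 probes of 8 genes gave 0 calls against 0%, 0.00928% and 0.0248%, and 1, 0 and 1 at an unadjusted p under 0.05 (4.85%, 3.49% and 5.03% of all probes). No probe had a slope with dose that passed the test, against 11%, 0.908% and 0.0309% of all probes in lung, liver and forestomach, and 3, 2 and 1 probes had an unadjusted p under 0.05 (25.4%, 16% and 5.17% of all probes). The genes not tested were Cyp1a2 in lung and forestomach, detected on 0 of 20 and 1 of 19 arrays, and Cyp1a1 and Ahrr in liver, detected on 1 of 19 and 0 of 19 arrays.

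**Figure D2:**
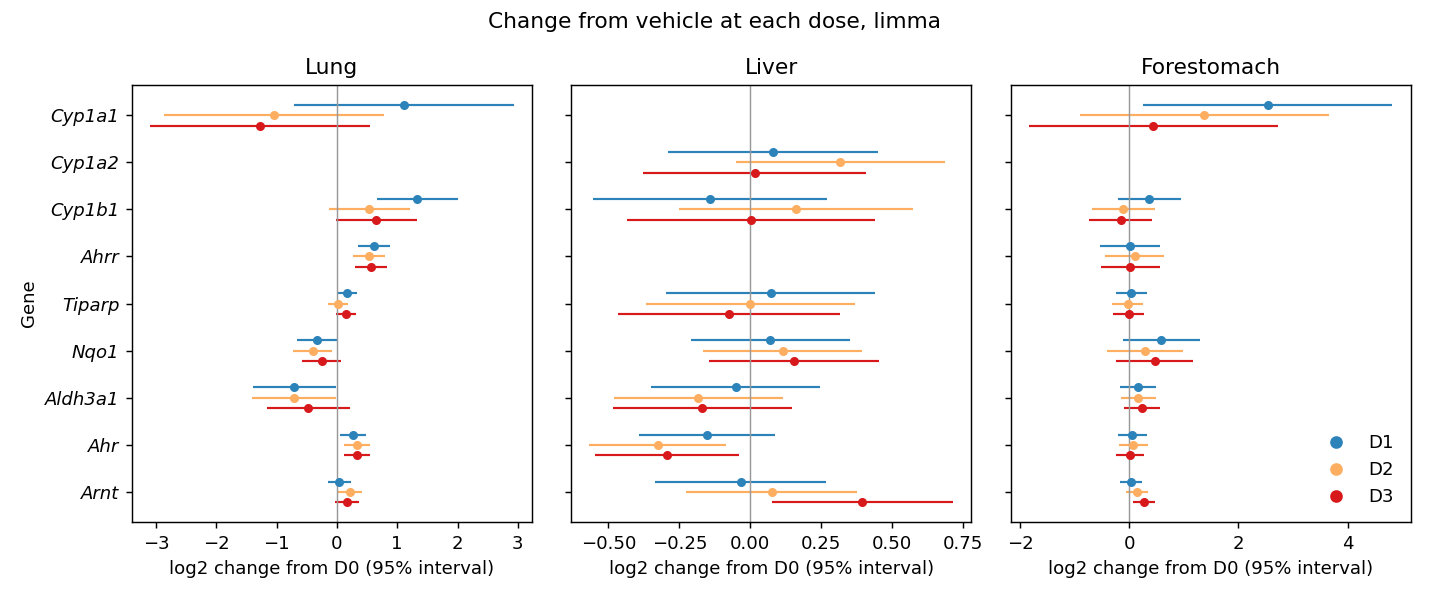
The horizontal axis is the log2 change from D0 and its range differs between the panels. Points are limma estimates for the lead probe of each tested gene, bars are 95% intervals, and colours are the doses. Cyp1a1 has the widest bars, and the Ahrr and Ahr bars in lung lie above 0 at all 3 doses.

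Cyp1a1 in lung split the low-dose mice. The D0 mice 1 to 5 had log2 ratios of 3.07, 2.78, 2.70, 1.60 and 2.22, and the D1 mice 6 to 10 had 0.69, 3.76, 5.90, 6.73 and 0.83. Thus 3 of the 5 D1 mice lay above every D0 mouse and the other 2 below every D0 mouse, and the highest D1 mouse exceeded the lowest 65.9-fold, against 2.77-fold among the D0 mice. The D2 mice 11 to 15 had 1.11, 3.24, 1.13, 0.70 and 1.00, and the D3 mice 16 to 20 had 1.55, 1.72, 0.73, 1.34 and 0.68. In both higher-dose groups 4 of 5 mice lay below every D0 mouse. The exceptions were D2 mouse 12, above every D0 mouse, and D3 mouse 17, within their range. The mean change was 1.11 ± 0.87 (SE, 95% interval −0.72 to 2.93) at D1, −1.04 ± 0.87 (−2.87 to 0.78) at D2 and −1.27 ± 0.87 (−3.10 to 0.55) at D3, with adjusted p of 0.834, 0.604 and 0.414 in limma. As folds, the intervals ran from 0.608 to 7.63, from 0.137 to 1.72 and from 0.117 to 1.47. A model of the D0 and D3 mice alone, which does not take in the spread of the D1 mice, gave the same D3 change with an SE of 0.28 and an adjusted p of 0.0292. The share of all probes called by that model is not given here. Within the 3 array slides, each with 1 or 2 mice of a group, the D3 change was −1.29, −1.36 and −1.20 and the D1 change was −2.24, 3.61 and 0.39.

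**Figure D3:**
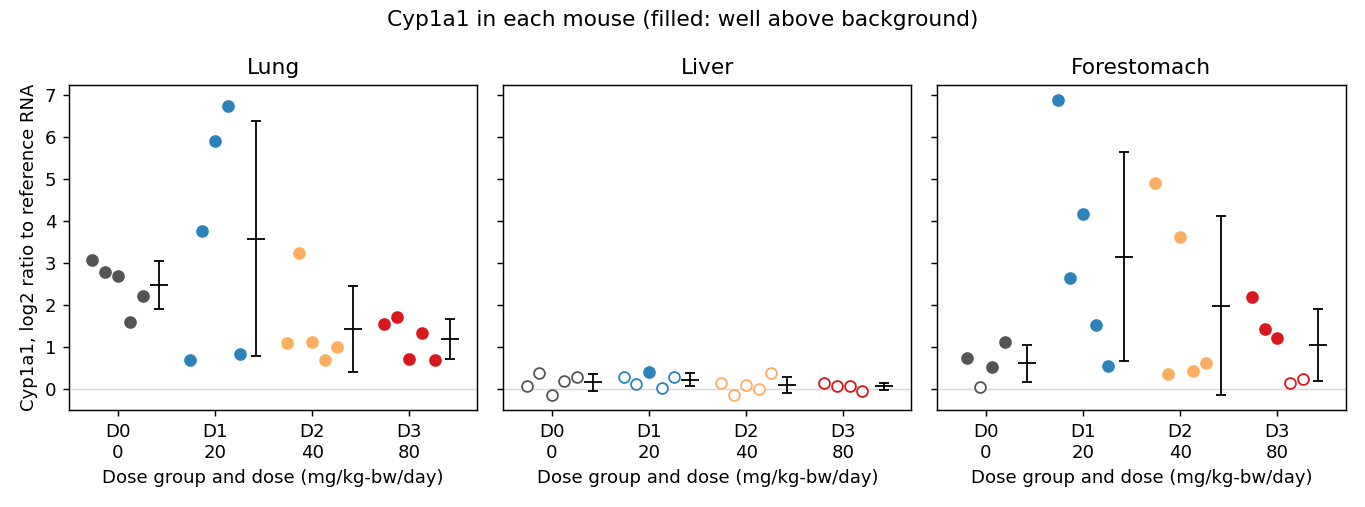
The vertical axis is the log2 ratio of Cyp1a1 to reference RNA, each circle is 1 mouse in number order within its dose group, open circles were not well above background, and the bars are mean ± SD. The D1 lungs run from 0.69 to 6.73 and the D1 forestomachs from 0.54 to 6.88, while only 1 liver value was well above background.

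Cyp1a1 also spread widely between mice in the forestomach. The D0 mice 1 to 4 had 0.75, 0.06, 0.52 and 1.13, that of mouse 2 not well above background. The D1 mice 6 to 10 had 6.88, 2.64, 4.17, 1.53 and 0.54, and 4 of these 5 lay above every D0 mouse. The D2 mice 11 to 15 had 4.90, 0.36, 3.61, 0.44 and 0.64, of which 2 lay above every D0 mouse, and the D3 mice 16 to 20 had 2.20, 1.42, 1.22, 0.16 and 0.25, of which 3 did and the last 2 were not well above background. The mean changes were 2.54 ± 1.08 (SE, 95% interval 0.26 to 4.82), 1.38 ± 1.08 (−0.90 to 3.66) and 0.44 ± 1.08 (−1.84 to 2.72), with adjusted p of 0.931, 1.00 and 0.999. The D1 change was 6.14, 2.03 and 1.54 within the 3 slides. All 5 D1 pieces were rich in glandular markers and only 1 of 4 D0 pieces was, and the part of this difference in the D1 change was not tested. Over the 19 arrays Cyp1a1 and the mean of the glandular markers had r = −0.01.

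The D1 mice 7, 8 and 9 lay above every D0 mouse in both lung and forestomach, but the order of the mice differed. Mouse 9 had the highest lung value, 6.73, and 1.53 in forestomach, while mouse 6 had the highest forestomach value, 6.88, and 0.69 in lung. Mouse 7 had 3.76 and 2.64, and mouse 8 had 5.90 and 4.17. Taken as deviations from the mean of the dose group, lung and forestomach gave Pearson's r = −0.21 (permutation p = 0.609, 100000 permutations within dose groups) and Spearman's rho = −0.08 (permutation p = 0.794) over 19 mice, with adjusted p of 0.811 and 0.949 over the 20 relations computed between tissues for these genes. Without the 2 mice farthest from the lung median, r was 0.29. None of the 20 relations passed the adjustment, and the lowest adjusted p was 0.734.

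The D3 mice were also set against the D1 mice, a comparison chosen after the D1 values had been seen. In lung Cyp1a1 was lower at D3 by a mean log2 change of −2.38 ± 0.87 (SE, 95% interval −4.20 to −0.55), which did not pass the test (adjusted p = 0.147, with 0.899% of all probes called). Without D1 mouse 6 the value was −3.10 (adjusted p = 0.0443), and without D1 mouse 10 it was −3.06 (adjusted p = 0.0490), so the call turned on either of the D1 mice with low Cyp1a1. In forestomach it was −2.10 ± 1.02 (−4.25 to 0.05, adjusted p = 1.00). No probe of the 9 genes was called for this comparison in lung, liver (0.0307% of all probes) or forestomach (0.00619%), and 2, 1 and 1 had an unadjusted p under 0.05 in limma (18.1%, 12.5% and 4.08% of all probes).

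Cyp1a2 was steady in liver. The D0 values given above compare with 5.05, 5.14, 4.55, 5.05 and 4.40 at D1, 5.02, 5.20, 5.30, 5.21 and 4.65 at D2, and 4.47, 4.86, 4.77 and 5.01 at D3. All 4 groups overlapped, and the highest liver exceeded the lowest of its group by no more than 1.68-fold. The change at D2 was 0.32 ± 0.18 (SE, 95% interval −0.05 to 0.69, adjusted p = 0.452), and at D3 the interval of the fold ran from 0.770 to 1.33. Over the 19 liver arrays Cyp1a2 moved with the mean of 7 liver markers (r = 0.88), and the 3 genes most like it were Hnf4a (r = 0.98), a liver transcription factor, Gulo (r = 0.97), the last enzyme of vitamin C synthesis, and Ces2e (r = 0.97), a carboxylesterase. Cyp1a1 in the same livers ran from −0.15 to 0.40, with D1 mouse 8 as its only detected value.

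Cyp1b1, the P450 that is prominent in tissues outside the liver, had log2 ratios in D0 lung of −1.17, −1.43, −1.47, −1.44 and −1.56. At D1 it had −0.86, 1.18, 0.21, 0.44 and −1.39, so 4 of 5 lay above every D0 mouse, and mice 7, 8 and 9, the same that were high in Cyp1a1, stood highest. At D2 it had −0.62, −0.82, −0.67, −1.25 and −1.03, with 4 of 5 above every D0 mouse. At D3 it had −0.30, −0.64, −1.09, −0.76 and −1.02, all 5 above every D0 mouse. Among all probes, 7.34% were separated from D0 at D3, in either direction. The changes were 1.33 ± 0.32 (SE, 95% interval 0.66 to 2.00), 0.54 ± 0.32 (−0.13 to 1.21) and 0.66 ± 0.32 (−0.02 to 1.33), with adjusted p of 0.265, 0.441 and 0.225. In the model of the D0 and D3 mice alone, for which the share of all probes called is not given, the D3 change had an SE of 0.14 and an adjusted p of 0.0266. Within the 3 slides the D3 change was 0.83, 0.71 and 0.45.

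Cyp1b1 in forestomach was −0.18, −0.22, −0.46 and −0.03 in the D0 mice and 0.89, 0.12, 0.64, −0.76 and −0.16 in the D1 mice, and none of its changes passed the test (largest 0.36 ± 0.27 at D1, adjusted p = 0.931). Over the 19 forestomach arrays it was the gene second most like Cyp1a1 (r = 0.80), after Rhox4g (r = 0.81) and before Gclm (r = 0.79), which encodes a subunit of the enzyme that makes glutathione. Those most like Cyp1b1 itself there were Gdf5 (r = 0.86), Bicra (r = 0.83) and then Cyp1a1. In lung, Cyp1a1 and Cyp1b1 had r = 0.59 over 20 arrays. The 3 genes most like Cyp1a1 in lung were Nxnl2, Cstdc4 and Ccl2 (r from 0.81 to 0.83), and those most like Cyp1b1 were Matk, Calca and Npl (r from 0.88 to 0.93). These correlations are over arrays that share dose groups and slides, and are given as a description.

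Ahrr, which competes with the receptor for Arnt, was low in vehicle lung and higher in every dosed lung. The D0 mice had −0.65, −0.63, −0.83, −0.78 and −0.60, of which only that of mouse 2 was well above background. The D1 mice had −0.32, 0.12, 0.07, 0.21 and −0.51, the D2 mice −0.34, −0.18, −0.08, −0.25 and −0.02, and the D3 mice 0.09, −0.35, −0.04, −0.40 and 0.03. All 15 dosed mice lay above all 5 D0 mice, and in 14 of these 15 the probe was well above background. Such a separation from D0 was seen for 1 of the 12 tested probes at D1, 2 at D2 and 3 at D3, against 1.1%, 4.62% and 7.34% of all probes. In liver it was seen for none of 10 tested probes at any dose (1.31%, 2.82% and 5.52% of all probes), and in forestomach for none of 11 at D1 and D2 (1.7% and 1.23%). Since only 1 of 5 mice at D0 was above background, Ahrr passed the filter on dim probes through the dosed mice, and the values below are set against D0 values that are mostly at background. With that limit, the change was 0.61 ± 0.13 (SE, 95% interval 0.35 to 0.88, adjusted p = 0.202) at D1, 0.52 ± 0.13 (0.26 to 0.79, adjusted p = 0.0379) at D2 and 0.56 ± 0.13 (0.30 to 0.83, adjusted p = 0.00915) at D3. An adjusted p of at most 0.05 at any fold was reached by 1.77% and 8.57% of all probes at D2 and D3. The fitted folds of 1.44 and 1.48 were under the 1.5-fold needed for a call.

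The size of the change depended on how the background was treated. The scanner's background-subtracted processed signals gave larger changes, 2.28 at D1 (adjusted p = 0.0522), 1.93 at D2 (adjusted p = 0.00840) and 2.21 at D3 (adjusted p = 0.00121). Without D0 mouse 5 the D2 change had an adjusted p of 0.0579, and with the Cy5 channel alone it was 0.40 (adjusted p = 0.114). Within the 3 slides the D3 change was 0.51, 0.43 and 0.69. The second Ahrr probe was not detected on any lung array and was not tested. In forestomach, Ahrr ran from −0.32 to 0.90 and was detected on 15 of 19 arrays, its changes were at most 0.10, and it moved with the mean of 6 endothelial markers (r = 0.85 over 19 arrays). The genes most like Ahrr in lung were Prdx5, Flvcr1 and Trappc1 (r from 0.76 to 0.80).

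**Figure D4:**
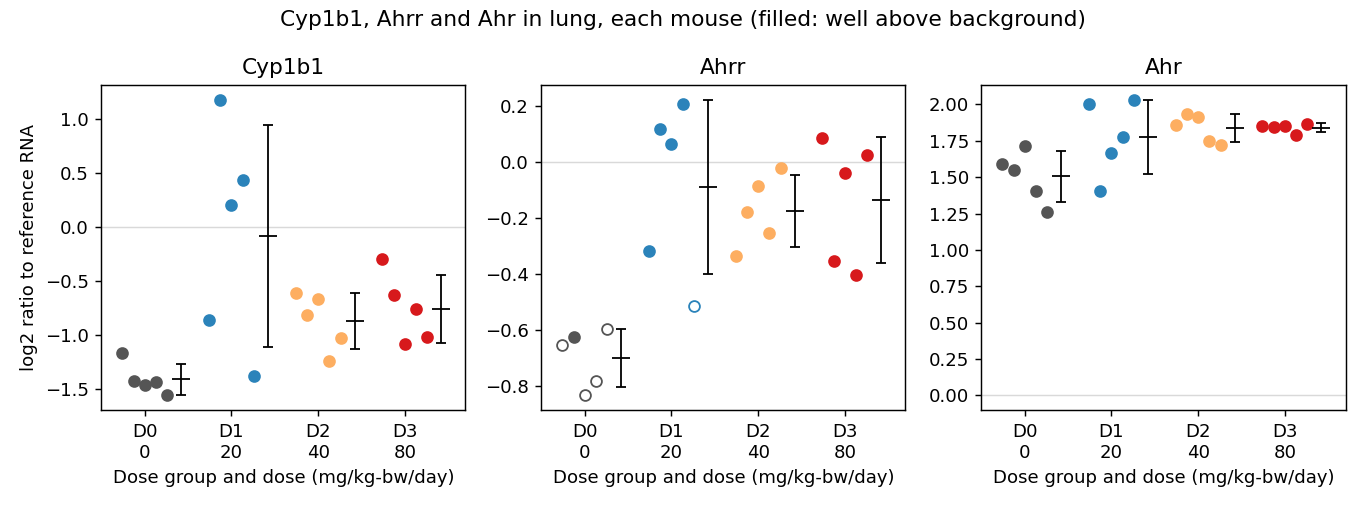
Each circle is the log2 ratio of Cyp1b1, Ahrr or Ahr in the lung of 1 mouse, open where not well above background, with mean ± SD beside each group, and the vertical scale differs between panels. For Ahrr all 15 dosed mice lie above the 5 D0 mice, and for Cyp1b1 mice 7, 8 and 9 of D1 stand highest.

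Tiparp, an ADP-ribosyltransferase that restrains AhR, hardly moved. In lung its lead probe ran from −1.08 to −0.75 in D0 mice and from −1.04 to −0.58 in dosed mice, with changes of 0.16 ± 0.08 at D1 (SE, adjusted p = 0.678) and 0.15 ± 0.08 at D3 (adjusted p = 0.278). Its second probe went the other way at D3, by −0.19 ± 0.10 (adjusted p = 0.256). In liver and forestomach each Tiparp change of the lead probe was smaller than its SE.

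Ahr itself had higher means in dosed lung, by a small amount that passed the adjusted p at D3 but stayed below 1.5-fold. The D0 mice had 1.59, 1.55, 1.71, 1.41 and 1.26, the D1 mice 2.00, 1.41, 1.67, 1.77 and 2.03, the D2 mice 1.86, 1.93, 1.92, 1.75 and 1.72, and the D3 mice 1.85, 1.85, 1.85, 1.79 and 1.86. All D2 and D3 mice lay above all D0 mice, and the D1 mice overlapped them. Among all probes, 4.62% at D2 and 7.34% at D3 were separated from D0 in this way, in either direction. The changes were 0.27 ± 0.10 (SE, 95% interval 0.06 to 0.48, adjusted p = 0.556), 0.33 ± 0.10 (0.12 to 0.54, adjusted p = 0.105) and 0.33 ± 0.10 (0.12 to 0.55, adjusted p = 0.0472). At D3, 8.57% of all probes reached an adjusted p of at most 0.05 at any fold. Without D0 mouse 5, the lung with squamous markers, the D3 change was 0.27 (adjusted p = 0.121). Ahr moved with the mean of the endothelial markers over the 20 lung arrays (r = 0.67), whose group medians were 4.63, 4.67, 4.80 and 4.92 from D0 to D3, and their part in the change was not tested. The second Ahr probe, detected on 7 of 20 lung arrays, had changes of −0.01 to 0.06.

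In liver the mean of Ahr was lower in each dosed group than at D0. The D0 mice had 0.86, 0.94, 0.85, 0.79 and 0.43, the D1 mice 0.64, 0.55, 0.86, 0.37 and 0.68, the D2 mice 0.53, 0.24, 0.46, 0.38 and 0.62, and the D3 mice 0.64, 0.24, 0.35 and 0.69. In each group at least 1 mouse overlapped the D0 range. The changes were −0.15 ± 0.11 (SE), −0.33 ± 0.11 and −0.29 ± 0.12, with adjusted p of 0.858, 0.205 and 0.241, and none passed the test. The difference between the D3 effects did, at 0.63 ± 0.16 for lung minus liver (SE, adjusted p = 0.0193). It was 1 of 9 probes of these genes tested for that difference, against 2.04% of all probes, and the only 1 with an unadjusted p under 0.05 (14.4% of all probes). The call was lost on leaving out any of mice 4 (D0), 17 and 18 (both D3), with adjusted p of 0.0610, 0.0901 and 0.0824, with the Cy5 channel alone (0.61, adjusted p = 0.0533), with processed signals (0.56, below 1.5-fold) and with median centring (1.02, adjusted p = 0.993). In forestomach Ahr ran from −0.80 to −0.27 with no change over 0.08, and opposed the endothelial markers (r = −0.82 over 19 arrays). None of the 11 probes tested for a D3 effect that differed between lung and forestomach was called (0.246% of all probes; 2 at an unadjusted p under 0.05, against 8.39%), nor any of the 9 tested between liver and forestomach (0.0227% of all probes; 0 at an unadjusted p under 0.05, against 7.19%).

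Arnt, the shared partner of AhR and other factors, had no change that passed the test. In lung the lead probe changed by 0.04 ± 0.09 (SE), 0.22 ± 0.09 (95% interval 0.02 to 0.41) and 0.17 ± 0.09, with adjusted p of 0.956, 0.255 and 0.286, and the second probe by 0.03, −0.09 and −0.07. In liver the lead probe was −0.30, −0.13, −0.30, −0.11 and −0.25 in D0 mice and −0.21, 0.18, 0.19 and 0.54 in D3 mice, a change of 0.40 ± 0.15 (SE, 95% interval 0.08 to 0.71, adjusted p = 0.204). In forestomach the D3 mice had −0.28, 0.05, −0.02, −0.05 and −0.27 and all lay above the D0 mice (−0.47 to −0.29), a change of 0.27 ± 0.10 (adjusted p = 0.830). That was 1 of 11 tested probes without overlap at D3, against 1.95% of all probes. The second Arnt probe changed by 0.03 ± 0.08 in liver and 0.02 ± 0.09 in forestomach, so the 2 probes did not move alike.

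Nqo1 and Aldh3a1, targets of both AhR and other stress regulators, were lower on average in dosed lung, and the highest vehicle value of each was that of mouse 5. Aldh3a1 in D0 lung was 0.47, 0.62, 0.46, 0.91 and 2.87, and dosed lungs ran from −0.11 to 1.11, the highest being D3 mouse 16. The changes were −0.70 ± 0.33 (SE), −0.71 ± 0.33 and −0.47 ± 0.33, with adjusted p of 0.669, 0.304 and 0.426. Without D0 mouse 5 they were −0.25, −0.26 and −0.02. The second Aldh3a1 probe also stood highest in mouse 5, at 2.22, and changed by −0.62, −0.56 and −0.28 (SE 0.29, adjusted p from 0.353 to 0.664). Mouse 5 and mouse 16 were the lungs with the highest squamous marker means, 3.62 and 2.33, with 8 of 8 and 6 of 8 of these markers detected, and Aldh3a1 and the squamous mean had r = 0.87 over 20 lungs. Fetub, Paqr5 and Klk11 were most like it (r from 0.93 to 0.95), and the part of squamous tissue in the result was not tested. Nqo1 in D0 lung was −1.53, −1.58, −1.29, −0.89 and −0.62, mouse 5 again the highest, and its changes of −0.33 ± 0.16, −0.40 ± 0.16 and −0.25 ± 0.16 (SE, adjusted p from 0.202 to 0.669) became −0.19, −0.26 and −0.11 without mouse 5.

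In forestomach Nqo1 moved with several marker lists of other tissue. The D0 mice had 1.99, 2.97, 1.67 and 1.21, the value of 2.97 belonging to mouse 2, the 1 D0 piece with a high glandular mean. The D1 mice had 2.56, 3.21, 2.65, 2.64 and 1.69, the D2 mice 2.32, 1.75, 2.07, 2.45 and 2.67, and the D3 mice 2.19, 1.99, 2.07, 2.83 and 3.06, so the groups overlapped. The changes were 0.59 ± 0.33 (SE), 0.29 ± 0.33 and 0.47 ± 0.33, with adjusted p of 0.931, 1.00 and 0.999, and over the 19 arrays Nqo1 had r = 0.84 with the mean of pancreas markers, 0.79 with that of glandular markers, 0.73 with that of liver markers and −0.73 with that of endothelial markers. Their part in the values was not tested. Aldh3a1 in forestomach was high and even, from 2.39 to 3.21, and its changes were 0.16, 0.17 and 0.23 with an SE of 0.16. In liver Nqo1 ran from −1.62 to −0.92 and Aldh3a1 from −1.44 to −0.69, with changes of at most 0.18 in size for the lead probes. The second Aldh3a1 probe changed by 0.06, 0.25 and −0.03 in liver, against −0.05, −0.18 and −0.17 for the lead, and by 0.11, 0.16 and 0.18 in forestomach. Ntmt1, Acd and Jkamp were most like Nqo1 in liver (r from 0.79 to 0.80), and Cog7, Gtf2ird2 and Tst most like Aldh3a1 in forestomach (r from 0.77 to 0.79).

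**Figure D5:**
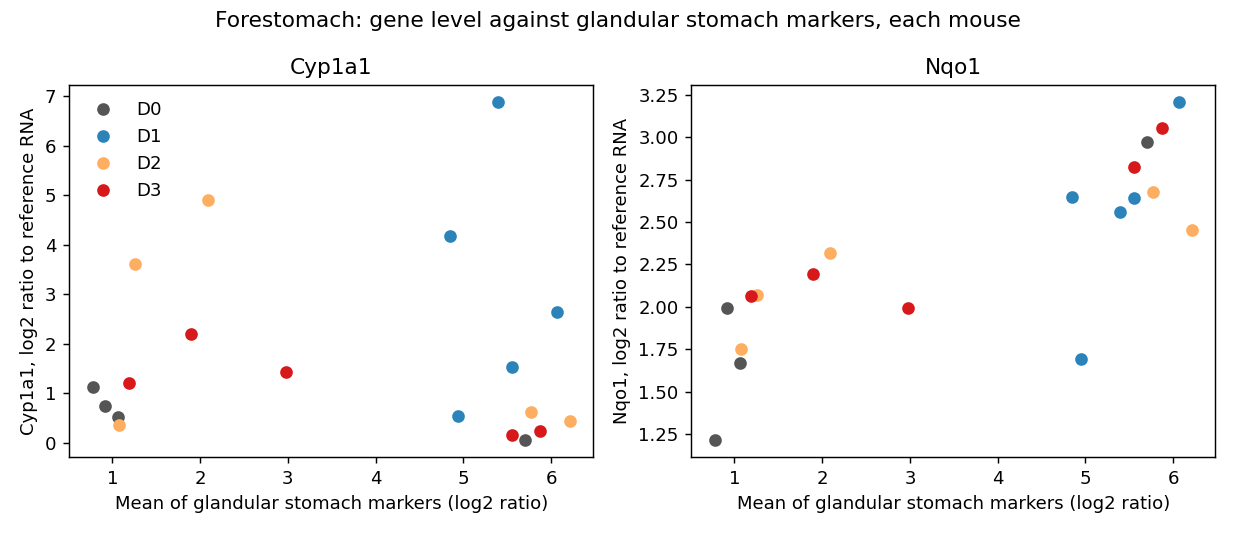
Each point is the forestomach of 1 mouse, coloured by dose group. The horizontal axis is the mean log2 ratio of 8 glandular stomach markers and the vertical axes are the log2 ratios of Cyp1a1 and Nqo1. Nqo1 climbs with the glandular mean (r = 0.79) and Cyp1a1 does not (r = −0.01), and all 5 D1 points lie at a glandular mean of 4.85 or more.

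The related lists gave no calls at any dose either. Of 10 partners of the AhR complex, 9 were tested in each tissue and 0 were called at any dose. In lung at D3 their median change was −0.18, and 2 passed the adjusted p below 1.5-fold, Ptges3, the p23 co-chaperone (−0.48 ± 0.13, adjusted p = 0.0213), and the coactivator Ncoa1 (−0.27 ± 0.08, adjusted p = 0.0436). Both also had a falling slope with dose in lung that passed the test (adjusted p of 0.0240 and 0.0425). Over all probes in lung, 8.57% passed the adjusted p at D3 and 11% had such a slope in either direction. Of 14 other known AhR targets, such as the glucuronosyltransferase Ugt1a6a, 13 were tested in lung, 10 in liver and 13 in forestomach, and 0 were called at any dose. Their median changes lay between −0.17 and 0.18. The widest was that of Serpinb2, a protease inhibitor, in D1 lung, at 1.29 ± 0.65 (adjusted p = 0.696), named here after its value was seen. All 10 genes for P450 partners and hydrocarbon detoxification, such as the reductase Por and the epoxide hydrolase Ephx1, were tested in each tissue and 0 were called at any dose, with median changes between −0.11 and 0.15. Ephx1 alone among them had a rising slope with dose in lung that passed the test (adjusted p = 0.0456). The lists were described by counts and medians only. Over all probes, at most 1.75% were called at any dose in lung, 0.483% in liver and 0.0248% in forestomach. With shares this low, 0 calls in lists of this size says little about the lists.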

How the data were processed

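RNA of lung, liver and forestomach was hybridised on two-colour Agilent arrays. The authors deposited scanner intensity files and a table of normalised log2 ratios of sample (Cy5) to reference (Cy3). The deposited log2 table was used for all main values, and it correlated with a loess recomputed here from the scanner intensity values at r from 0.995 to 0.998. Control spots were left out, spots of 1 probe were averaged, and probes were named through RefSeq accessions. Of 55681 probes, 26413 matched a symbol. A probe was tested in a tissue where its Cy5 spot was well above background on at least 4 arrays. Doses were compared in limma 3.58.1 (R 4.3.3) with 1 model of the 4 dose groups per tissue, and tissues in a joint model of all 58 arrays, with Benjamini-Hochberg adjustment over all tested probes. A probe was called at an adjusted p of at most 0.05 and a fold of at least 1.5, and a dose slope at an adjusted p of at most 0.05. Samples were grouped by their labels. Tissues sharing a number come from 1 mouse by those labels, and the correlation within mice over all probes was 0.0371. The scripts were tested on simulated data. The 9 genes and all lists were chosen with earlier results of these data known. The text names every probe of the 9 genes, every called gene of 3 related lists and, for 9 pairs of gene and tissue, the 3 most similar symbols. Ptges3, Ncoa1 and Ephx1 were called for a slope, and Serpinb2 was named after its values were seen. Alternatives were other backgrounds, normalisations, filters and models, and leaving out each mouse. The number of arrays limits the precision.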

Additional observations from a re-analysis of the deposited data

Results flagged for a closer look

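Of 92 groups of 4 or 5 mice examined, 6 held a mouse far from the others of its group, and chance alone gives about 1 in 20. In D0 lung, Aldh3a1 was 2.87 in mouse 5, the lung with all 8 squamous markers detected. In D2 lung, Cyp1a1 was 3.24 in mouse 12, Arnt was 0.71 in mouse 15 and Tiparp was −1.04 in mouse 11. In D3 lung, Ahr was 1.79 in mouse 19, in a group that otherwise spanned 1.85 to 1.86. In D0 liver, Nqo1 was −0.92 in mouse 2. The D3 effect on Ahr differed between lung and liver by 0.63 in the test of the difference itself (adjusted p = 0.0193 in limma).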

How the results depend on the processing

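The count of called probes of the 9 genes in lung was 0 at D2 and D3. At D2 it was 1 with no minimum fold and with processed signals (Ahrr in both). At D3 it was 1 with recomputed loess and with processed signals (Ahrr in both) and 2 with no minimum fold (Ahrr and Ahr). It was 2 in the model of D0 and D3 alone (Cyp1a1 and Cyp1b1), and 0 to 1 on leaving out each mouse (Ahrr without mouse 5, 17 or 19). Over all probes at D2, no minimum fold gave 537 calls and processed signals 380, against 149 in the main model. At D3 recomputed loess gave 572, processed signals 1125 and no minimum fold 2605, against 532. Such totals are not given here for the model of D0 and D3 alone or for leaving out mice. The lung slope count was 1 with processed signals (Ahrr) and 0 to 1 on leaving out each mouse (Ahrr without mouse 9, Ahr without mouse 10). The D3 minus D1 count in lung, a comparison chosen after seeing the data, was 0 to 2 on leaving out each mouse (Cyp1a1 without mouse 6, Cyp1a1 and Cyp1b1 without mouse 10). The count for the D3 effect of lung minus liver, 1, fell to 0 with the Cy5 channel alone, median centring and processed signals, and was 0 to 1 on leaving out each mouse. With mouse as a replicate block it remained 1 (Ahr, 0.63, adjusted p = 0.0157), and the block changed none of the 6 counts between tissues. Median centring moved the median of all probes in lung by 0.18, 0.38 and 0.15 at D1, D2 and D3.

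Small changes turned sign under some alternatives, none of them past the test. With median centring, in forestomach Ahr at D3 was −0.074, Ahrr at D3 −0.052, Arnt at D1 −0.0042, Cyp1b1 at D2 0.16 and Tiparp at D2 0.24. In liver Aldh3a1 at D1 was 0.015, Arnt at D1 0.020, Arnt at D2 −0.23, Cyp1a2 at D3 −0.065, Cyp1b1 at D2 −0.026, Cyp1b1 at D3 −0.10 and Nqo1 at D2 −0.10. In lung Nqo1 at D2 was 0.17 and Nqo1 at D3 0.035. With processed signals, in forestomach Ahrr at D1 was −0.14 and Tiparp at D2 0.037. In liver Cyp1b1 at D2 was −0.92, Cyp1b1 at D3 −0.81 and Tiparp at D2 0.00069. With slide as a block, in forestomach Ahr at D3 was −0.018. In liver Cyp1a2 at D3 was −0.068, Cyp1b1 at D3 −0.091 and Tiparp at D2 0.031. In lung Tiparp at D2 was −0.0013. With the Cy5 channel alone, in forestomach Tiparp at D3 was 0.053. In liver Arnt at D1 was 0.21. With recomputed loess, in forestomach Tiparp at D3 was 0.0011. In liver Cyp1b1 at D3 was −0.018. With normexp, in forestomach Tiparp at D2 was 0.0010 and Tiparp at D3 0.0037. In liver Cyp1b1 at D3 was −0.12. The cause was not tested.

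On leaving out each mouse, values crossed 0 in forestomach for Ahr at D1 (−0.0063 to 0.15), Ahr at D3 (−0.049 to 0.11), Ahrr at D1 (−0.15 to 0.16), Ahrr at D2 (−0.053 to 0.25), Ahrr at D3 (−0.13 to 0.14), Arnt at D1 (−0.022 to 0.075), Tiparp at D1 (−0.038 to 0.10), Tiparp at D2 (−0.12 to 0.062) and Tiparp at D3 (−0.084 to 0.044). They also did so in liver for Aldh3a1 at D1 (−0.15 to 0.041), Arnt at D1 (−0.11 to 0.072), Arnt at D2 (−0.012 to 0.11), Cyp1a2 at D1 (−0.022 to 0.19), Cyp1a2 at D3 (−0.088 to 0.12), Cyp1b1 at D3 (−0.11 to 0.18), Nqo1 at D1 (−0.013 to 0.18), Tiparp at D1 (−0.074 to 0.15) and Tiparp at D2 (−0.12 to 0.082), and in lung for Arnt at D1 (−0.032 to 0.11) and Tiparp at D2 (−0.029 to 0.068). Signal over background limits Cyp1a1 and Ahrr in liver and Cyp1a2 in lung and forestomach, which were at or near background. It also limits Cyp1b1 in liver, detected on 6 of 19 arrays, and Ahrr in D0 lung, detected in 1 of 5 mice.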
